A study of Mus musculus with 42 samples.

Results

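The cytochrome P450 family 4 genes analysed here are 10 mouse genes of fatty acid hydroxylases, chosen by name (Cyp4a10, Cyp4a12a, Cyp4a12b, Cyp4a14, Cyp4a31, Cyp4a32, Cyp4f13, Cyp4f14, Cyp4f15 and Cyp4v3), out of 54446 genes in the count table. Of these 10, 9 had enough reads to be tested, among 15574 tested genes. Cyp4a12b did not. Hepatic RNA was measured by poly(A) RNA sequencing in 42 female APOE*3-Leiden mice, all carrying the human APOE*3-Leiden transgene, 1 library per mouse. Of these, 10 were fed chow, 16 a Western-type diet (WTD) and 16 the WTD with atorvastatin, a statin that inhibits HMG-CoA reductase, and livers were taken at 32 weeks. The WTD held 15% cocoa butter, 40.5% sucrose and 1% cholesterol, was given to mice of 8 to 14 weeks of age for 3 weeks before the groups were formed, and was supplemented with 0.05% cholate from week 22. Atorvastatin was mixed into the WTD at 3.0 mg/kg/day, raised to 4.5 mg/kg/day at week 5. The mouse numbers of the chow group carry another prefix than those of the WTD-fed groups, so whatever that prefix stands for cannot be told apart from the diet, and the labels give no collection time.

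CYP4 enzymes sit in the endoplasmic reticulum of hepatocytes and put a hydroxyl group on the far (omega) end of a fatty acid. The product is oxidised further by alcohol and aldehyde dehydrogenases to a dicarboxylic acid, which peroxisomes shorten. Cyp4a10 and Cyp4a14 are textbook targets of the fatty acid receptor PPARα in mouse liver, CYP4F enzymes also hydroxylate leukotriene B4 and vitamin E, and the Cyp4a12 genes are expressed mainly in male mice.

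The members lie in 3 places of the mouse genome (GRCm38). The 6 Cyp4a genes form a cluster on chromosome 4, from the start of Cyp4a12a at 115299046 to the end of Cyp4a32 at 115621602. The 3 Cyp4f genes lie on chromosome 17, from 32685627 (the start of Cyp4f15) to 32947402 (the end of Cyp4f13), and Cyp4v3 (ENSMUSG00000079057.4) lies alone at chr8:45304944-45333216 on the minus strand. Cyp4a10 (ENSMUSG00000066072.13) is at chr4:115518264-115533649 on the plus strand, next to Cyp4a14 (ENSMUSG00000028715.2) at chr4:115486200-115496142 on the minus strand. Cyp4f14 (ENSMUSG00000024292.14) is at chr17:32905070-32917342 and Cyp4f13 (ENSMUSG00000024055.14) at chr17:32924688-32947402, both on the minus strand. All 10 are annotated as protein-coding, and the counts cover their exons. How alike they are bears on their counts, because a read that fits 2 genes equally is not assigned to either. The coding sequences of Cyp4a10 and Cyp4a32 were 97.2% identical and those of Cyp4a10 and Cyp4a31 96.6%, whereas Cyp4a10 and Cyp4a14 shared 75.6%. Of all 150-base windows of the coding sequence, the length of 1 read, 6.17% in Cyp4a10, 7.18% in Cyp4a31 and 7.98% in Cyp4a32 also occurred in another Cyp4 transcript. The share was 31.9% in Cyp4a12a and in Cyp4a12b, which were 98.5% identical to each other, and 0% in Cyp4a14, Cyp4f13, Cyp4f14, Cyp4f15 and Cyp4v3. Reads from shared windows can thus be missing from the counts of each of these genes, although the windows treat each read alone and the reads came in pairs. How far the values of Cyp4a31 and Cyp4a32 hold reads of the more abundant Cyp4a10 cannot be told from the counts, and they are uncertain to that extent. The stretch of 10 codons around the cysteine that holds the haem iron shows the subfamilies. It is printed 5′ to 3′ from the GENCODE vM21 transcripts, with capitals where a base differs from Cyp4a10.
Cyp4a10: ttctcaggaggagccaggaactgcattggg
Cyp4a31: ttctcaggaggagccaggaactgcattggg
Cyp4a32: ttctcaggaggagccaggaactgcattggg
Cyp4a12a: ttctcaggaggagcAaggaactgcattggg
Cyp4a12b: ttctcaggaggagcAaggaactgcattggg
Cyp4a14: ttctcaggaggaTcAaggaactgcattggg
Cyp4f13: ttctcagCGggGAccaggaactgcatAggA
Cyp4f14: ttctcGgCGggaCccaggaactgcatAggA
Cyp4f15: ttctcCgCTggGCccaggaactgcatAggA
Cyp4v3: ttTtcTgCTggaCcTCgAaactgTattggT
In this stretch Cyp4a31 and Cyp4a32 did not differ from Cyp4a10 at any of 30 bases, Cyp4a14 differed at 2, the Cyp4f genes at 6 or 7 and Cyp4v3 at 10.

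Compared per kilobase of exon, the scale on which genes can be set side by side, Cyp4a14 and Cyp4a10 were the most abundant members in chow-fed mice, with medians of 337 and 322 CPM per kilobase, where CPM are read counts scaled to the size of the library. Cyp4f14 and Cyp4f15 followed at 153 and 122 CPM per kilobase, and Cyp4a32, Cyp4v3 and Cyp4f13 lay lower at 36.1, 25.5 and 23.7. Cyp4a31 was at 4.83 CPM per kilobase, and the medians of Cyp4a12a and Cyp4a12b were 0. Neighbours in this order were not always apart: Cyp4a14 exceeded Cyp4a10 in 6 of 10 chow mice, Cyp4v3 exceeded Cyp4f13 in 6 and Cyp4a32 exceeded Cyp4v3 in 8, while Cyp4a10 exceeded Cyp4f14, and Cyp4f15 exceeded Cyp4a32, in all 10 without overlap of the ranges. In the WTD group Cyp4a10 led at a median of 105 CPM per kilobase, above Cyp4a14 in 10 of 16 mice, and Cyp4f15 at 62.9 stood above Cyp4f14 at 56.3 in 13 of 16. With atorvastatin Cyp4a10 (141 CPM per kilobase) exceeded Cyp4a14 (122) in 14 of 16 mice.

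**Figure D1:**
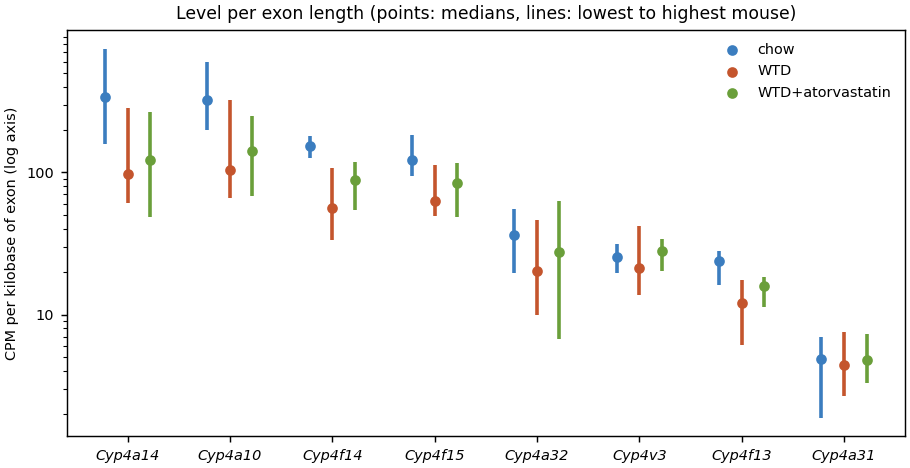
CPM per kilobase of exon (vertical log axis) of the 8 members with reads in all mice, ordered by their chow median; points are group medians and lines run from the lowest to the highest mouse. Cyp4a14 and Cyp4a10 lead in the chow group with medians of 337 and 322, and Cyp4a31 is lowest in each group.

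WTD feeding was accompanied by lower mRNA of the most abundant members. Of 9 tested members, 5 fell (Cyp4a14, Cyp4a10, Cyp4f14, Cyp4f15 and Cyp4f13) and 0 rose, by edgeR's quasi-likelihood test at an adjusted p under 0.01, Benjamini-Hochberg adjusted over all tested genes. On the same rule 33.5% of all tested genes were called, 16% lower and 17.5% higher. The median log2 fold change was -0.94 over the members and 0.03 over all tested genes. The members' counts added up to a median of 2522 CPM in chow-fed and 940 CPM in WTD-fed mice.

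Cyp4a14, an omega-hydroxylase of medium- and long-chain fatty acids, ranged from 411 to 1929 CPM in chow-fed mice, with a median of 876, and from 158 to 741 CPM in WTD-fed mice, with a median of 253. All 16 WTD mice lay under the chow median and 14 under the lowest chow mouse, mice 4 and 15 being the others. Its log2 fold change was -1.88 ± 0.25 (SE, 3.68-fold lower, adjusted p = 6.12e-08).

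Cyp4a10, its neighbour with the same reaction, spanned 419 to 1255 CPM on chow around a median of 678, and 139 to 682 CPM on WTD around a median of 221. WTD mouse 15 was the exception at 682 CPM, since the other 15 WTD mice, at 139 to 374 CPM, were all below the lowest chow mouse. The log2 fold change was -1.72 ± 0.23 (SE, 3.30-fold lower, adjusted p = 7.40e-08).

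Within the chow group both genes fell into 2 sets of mice. Chow mice 1 to 4 held 1099.6 to 1255 CPM of Cyp4a10 and 1511 to 1929 CPM of Cyp4a14, and chow mice 5 to 10 held 419 to 679 and 411 to 945 CPM. The ranges of the other members overlapped between these mice, as those of Cyp4f14 did at 314 to 437 and 303 to 431 CPM. Scores of 10 hepatocyte markers, the mean of their log2 CPM, were just below in mice 1 to 4 (11.75 to 11.88) those in mice 5 to 10 (11.89 to 12.27), and the clock scores, a summary of 15 circadian genes, overlapped (-8.16 to -0.16 and -6.14 to 1.67). These sets were seen in the values and were not tested. The fold changes of Cyp4a10 and Cyp4a14 given above average over both sets, and no fit left out chow mice 1 to 4 together.

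Cyp4f14, which hydroxylates leukotriene B4 and vitamin E, fell as well. Its CPM ran from 303 to 437 on chow, with a median of 371, and from 81.2 to 258 on WTD, with a median of 136. All WTD mice were below all chow mice, as in 2.44% of all tested genes and in 1 of the 10 members. The log2 fold change was -1.42 ± 0.12 (SE, 2.67-fold lower, adjusted p = 5.12e-14).

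Cyp4f15 ranged from 215 to 417 CPM on chow, with a median of 278, and from 113 to 256 CPM on WTD, with a median of 144. Cyp4f13 ranged from 71.1 to 125 CPM with a median of 105 on chow, and from 27.2 to 77.5 CPM with a median of 53.6 on WTD. In each of them 15 of 16 WTD mice were below the lowest chow mouse, mouse 15 again being the one above. Both fell by 0.94 on the log2 scale (SE 0.12 for Cyp4f15 and 0.10 for Cyp4f13, adjusted p = 9.95e-09 and 7.29e-11).

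Cyp4a32, the near copy of Cyp4a10, was not called. It held 29.9 to 84.7 CPM on chow (median 55.5) and 15.3 to 71.0 CPM on WTD (median 31.2), with 8 of 16 WTD mice under the lowest chow mouse and a log2 fold change of -0.77 ± 0.29 (SE, adjusted p = 0.0300). A fit of the 2 groups alone called it (adjusted p = 6.43e-04). The ratio of Cyp4a32 to Cyp4a10 within a mouse was higher on WTD, by 0.96 on the log2 scale (permutation test over mice, adjusted p = 0.0085 over 9 ratio tests, a test added after the data had been seen).

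Cyp4v3, an omega-hydroxylase whose human counterpart CYP4V2 is mutated in a retinal dystrophy, ranged from 74.5 to 120 CPM on chow and from 52.6 to 159 CPM on WTD. Its log2 fold change was -0.11 ± 0.11 (SE), with a 95% interval from -0.33 to 0.11 and an adjusted p of 0.427. Cyp4a31 lay between 4.73 and 17.4 CPM on chow and between 6.67 and 19.0 CPM on WTD, a log2 fold change of 0.11 with a 95% interval from -0.27 to 0.50 (adjusted p = 0.666). In both genes the diets overlapped, with 2 WTD mice below the lowest chow mouse and 1 above the highest for Cyp4v3, and 2 above the highest for Cyp4a31.

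The genes known as male-biased were close to absent in these female mice. Cyp4a12a had a count in 4 of 10 chow, 8 of 16 WTD and 10 of 16 atorvastatin mice, with a highest value of 4.62 CPM (124 counts) in WTD mouse 6. Cyp4a12b had a count in 4, 7 and 5 mice and reached at most 2.58 CPM. Cyp4a12a gave a log2 fold change of 0.53 ± 1.07 (SE, adjusted p = 0.721) for WTD against chow, and the sum of both genes -0.25 ± 0.98 (SE).

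**Figure D2:**
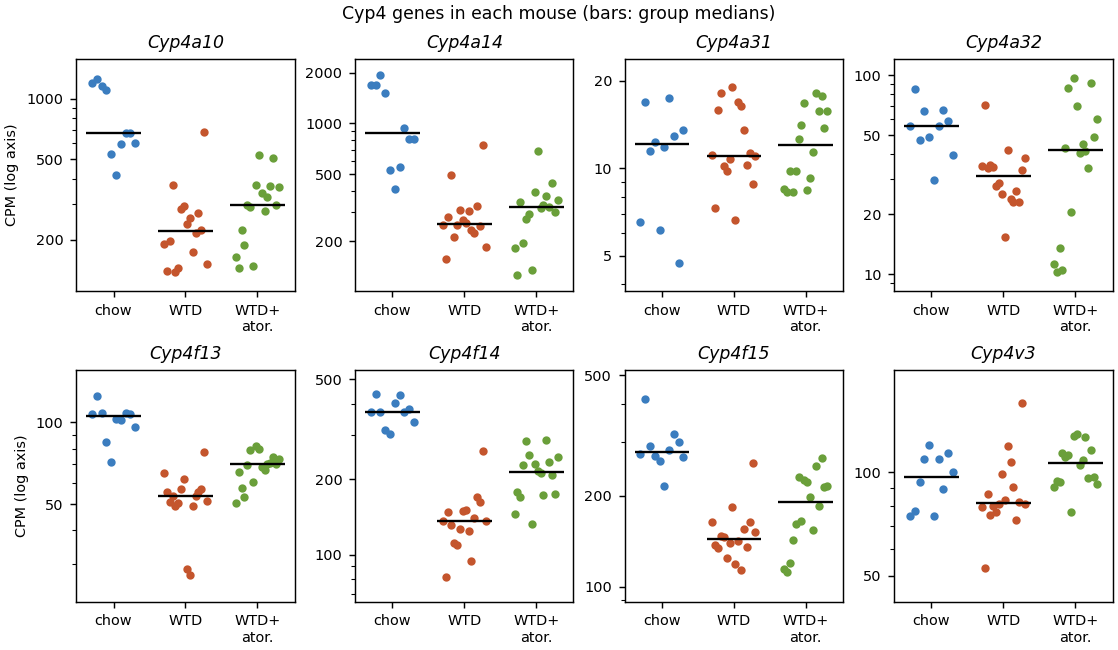
CPM of 8 members in each mouse (vertical log axes, 1 point a mouse, horizontal bars at group medians) for chow, WTD and WTD with atorvastatin (WTD+ ator.). Cyp4f14 is the panel in which chow mice (303 to 437 CPM) stand clear of the WTD mice (81.2 to 258 CPM), and the 4 lowest atorvastatin mice of Cyp4a32 lie at 10.3 to 13.5 CPM.

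Under atorvastatin a subset of the Cyp4f genes had higher mRNA. Of 9 tested members, 2 rose against WTD alone (Cyp4f14 and Cyp4f13) and 0 fell, where 7.1% of all tested genes were called, 4.84% higher and 2.26% lower. The members' median log2 fold change was 0.28, beside 0.00157 over all tested genes. These and the former values share the WTD mice, so each is given on its own.

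Cyp4f14 ranged from 132 to 287 CPM with atorvastatin, with a median of 213, against 81.2 to 258 CPM with a median of 136 on WTD alone. The ranges overlapped, but 15 of 16 treated mice lay above the WTD median. The log2 fold change was 0.59 ± 0.11 (SE, 1.51-fold higher, adjusted p = 1.23e-04).

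Cyp4f13 was at 50.3 to 81.8 CPM (median 70.0) with atorvastatin and at 27.2 to 77.5 CPM (median 53.6) without. Of the treated mice, 14 of 16 were above the WTD median. It rose by 0.37 ± 0.09 (SE) on the log2 scale (1.29-fold, adjusted p = 0.00397). Its call was lost when each library's share of genes at 1 to 2 CPM that lacked a count was a covariate (Cyp4f13, WTD+atorvastatin against WTD, log2 fold change 0.33, edgeR adjusted p = 0.0159). With the score of hepatocyte markers as the covariate the log2 fold changes were 0.13 for Cyp4f13 (adjusted p = 0.999) and 0.17 for Cyp4f14 (adjusted p = 0.980), and neither was called.

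Cyp4f15 (111 to 266 CPM, median 191) and Cyp4v3 (77.0 to 130 CPM, median 107) had log2 fold changes of 0.30 ± 0.11 (SE, adjusted p = 0.0600) and 0.25 ± 0.10 (SE, adjusted p = 0.0794) and were not called. For these genes the call turned on 1 library. WTD mouse 15 was the highest of its group in Cyp4a10, Cyp4a14, Cyp4f13, Cyp4f14, Cyp4f15 (256 CPM) and Cyp4v3 (159 CPM), and its score of hepatocyte markers was 11.64, when the other WTD mice reached 11.17 at most. Without it 4 members were called, with Cyp4f15 (adjusted p = 0.00706) and Cyp4v3 (adjusted p = 0.00401) added.

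The Cyp4a genes were not called in this fit. Cyp4a10 was called higher by limma-voom with quality weights per sample (adjusted p = 0.00178), the only alternative to call it. Cyp4a10 ranged from 144 to 525 CPM with a median of 297 under atorvastatin, a log2 fold change of 0.28 with a 95% interval from -0.14 to 0.71 (adjusted p = 0.462). Cyp4a14 ranged from 127 to 689 CPM with a median of 317, a log2 fold change of 0.09 with an interval from -0.36 to 0.55 (adjusted p = 0.872). The interval of Cyp4a14 includes the value of Cyp4f13. The difference between Cyp4a14 and Cyp4f14 could be tested within mice: the log2 ratio of Cyp4a14 to Cyp4f14 was 1.03 ± 0.37 (SD, n = 16) on WTD and 0.50 ± 0.55 (SD, n = 16) with atorvastatin, lower by 0.53 (permutation test, adjusted p = 0.0085 over the 9 ratio tests). Without WTD mouse 15 the difference was -0.50 (permutation test, adjusted p = 0.013). The ratios were added after the data had been seen, and the adjustment covers only the 9 ratio tests, not the choice of pairs. The log2 ratio of Cyp4a10 to Cyp4a14 was higher with atorvastatin by 0.24 (permutation test, adjusted p = 0.012), and differed between WTD and chow by 0.04 (adjusted p = 0.72).

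Cyp4a32 stood out by its spread. The treated mice ran from 10.3 to 96.3 CPM with a median of 42.3, a 9.36-fold range, where WTD mice ran from 15.3 to 71.0 CPM. Of the treated mice 4 lay under the lowest WTD mouse and 3 above the highest one. The log2 fold change of 0.48 ± 0.26 (SE, adjusted p = 0.261) averages over this spread. Atorvastatin mice 1 to 4 held 10.3 to 13.5 CPM of Cyp4a32 and mice 5 to 16 held 20.6 to 96.3 CPM. The same 4 mice were also the lowest treated mice in Cyp4f15 (111 to 142 CPM, against 154 to 266 CPM) and in the hepatocyte marker score (11.09 to 11.25, against 11.41 to 11.76).

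Cyp4a31 (8.29 to 18.2 CPM) had a log2 fold change of 0.01 with an interval from -0.32 to 0.34 (adjusted p = 0.984), a value that fell to either side of 0 with the normalization. Cyp4a12a had a log2 fold change of -1.82 ± 0.96 (SE, adjusted p = 0.238) on counts of at most 26 in the treated mice.

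Set against chow, WTD with atorvastatin left 5 of 9 tested members lower and 0 higher, where 25% of all tested genes were called, 10.7% lower and 14.2% higher. Their log2 fold changes were -1.79 for Cyp4a14, -1.44 for Cyp4a10, -0.82 for Cyp4f14, -0.64 for Cyp4f15 and -0.57 for Cyp4f13, with adjusted p from 2.51e-07 to 3.80e-05. Cyp4f14 at 132 to 287 CPM lay without overlap below the chow mice, at 303 to 437 CPM, as 1.49% of all tested genes did. Cyp4v3 had a log2 fold change of 0.14 with an interval from -0.08 to 0.35 (adjusted p = 0.361), and Cyp4a32 one of -0.29 with an interval from -0.89 to 0.31 (adjusted p = 0.484).

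**Figure D3:**
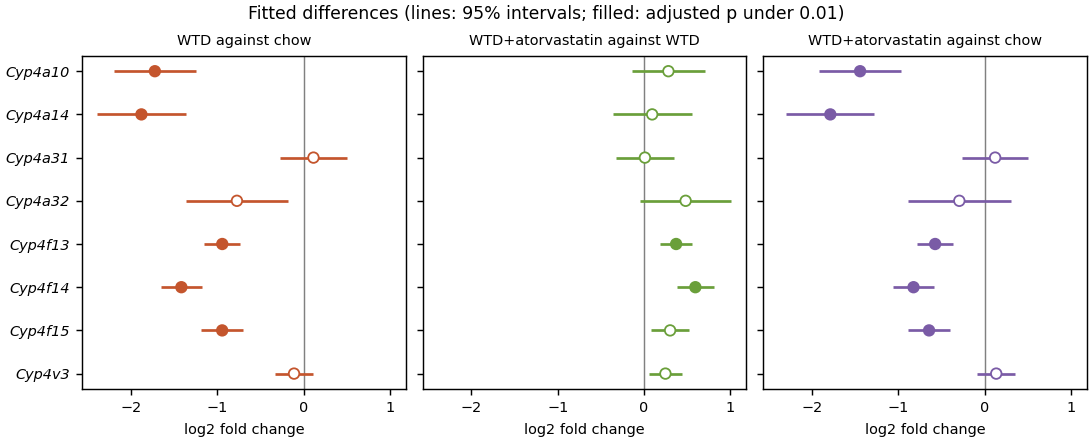
Log2 fold changes (horizontal axes) of 8 members in the 3 comparisons, with lines for 95% intervals and filled points for an adjusted p under 0.01. Cyp4a14 (-1.88) and Cyp4a10 (-1.72) lie farthest from 0 for WTD against chow, and Cyp4f14 (0.59) and Cyp4f13 (0.37) are the filled points for WTD+atorvastatin against WTD.

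Markers of hepatocytes, the cells that express these genes, also differed between the groups. All 10 hepatocyte markers fell on WTD, with a median log2 fold change of -0.86, and with atorvastatin 8 of 10 rose, with a median of 0.45. Their summed level was 115900 to 171000 CPM on chow, 54870 to 110200 CPM on WTD and 65160 to 133500 CPM with atorvastatin. Their score was 11.75 to 12.27 on chow, 10.63 to 11.64 on WTD and 11.09 to 11.76 with atorvastatin. In whole liver, fewer hepatocytes and less RNA per hepatocyte cannot be told apart. With the score as a covariate, 0 of 9 members were called for WTD against chow (log2 fold changes of -0.60 for Cyp4a10, -0.91 for Cyp4a14, -0.56 for Cyp4f14, -0.48 for Cyp4f13 and -0.09 for Cyp4f15), 0 for WTD+atorvastatin against WTD, and 3 for WTD+atorvastatin against chow, with Cyp4a10 and Cyp4a14 lower and Cyp4v3 higher. Since the score of chow and WTD mice does not overlap, the covariate and the diet cannot be told apart in the first of these fits. Chow (11.75 to 12.27) and atorvastatin mice (11.09 to 11.76) barely overlap in the score. The 3 calls of the last fit therefore carry nearly the same limit. At an unadjusted p under 0.05, edgeR with this covariate found 5, 0 and 7 of the 9 members, and over all tested genes it called 531, 0 and 1886 at an adjusted p under 0.01. Markers of other cells moved too: on WTD all 10 macrophage markers rose (median 2.81), as did all 6 cholangiocyte markers (median 1.99), 6 of 10 stellate cell and 4 of 5 tested neutrophil markers, while edgeR called 0 of 9 T and B cell markers (2 at an unadjusted p under 0.05). For WTD+atorvastatin against WTD, 6 of 10 macrophage markers fell and 0 rose (median -0.59), among them Lyz2 (-0.99) and Trem2 (-0.97). Of the 10 stellate cell markers 4 fell, such as Lum (-1.36), and 1 rose (median -0.40), and of the 6 cholangiocyte markers Spp1 fell (-0.79) and 0 rose (median -0.69). EdgeR called 0 of 5 neutrophil and 0 of 9 T and B cell markers there (1 and 0 at an unadjusted p under 0.05). The part of these cells in the values of the members was not tested. All 5 kidney tubule markers had too few reads to be tested. A total of 9 libraries (3 chow, 5 WTD and 1 atorvastatin) lacked a count for over 20% of the genes at 1 to 2 CPM, and without them 5, 3 and 5 members were called, with Cyp4v3 added for WTD+atorvastatin against WTD. The clock score had medians of -4.49 on chow, -0.46 on WTD and 1.32 with atorvastatin, and with it as a covariate 5, 2 and 5 members were called.

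Pairs of members were compared across the mice of each group. On log2 CPM centred within groups over 42 mice, 19 of 36 pairs of members passed an adjusted p of 0.05 (permutation within groups), and all 19 were positive. Within the chow, WTD and atorvastatin groups taken alone, 3, 4 and 16 pairs passed. The 42 mice include chow mice 1 to 4 and atorvastatin mice 1 to 4, which stood apart above, and so do the 16 pairs of the atorvastatin group. As a description, added after the data had been seen, the median r over the 36 pairs was 0.36 in 42 mice and 0.23 without those 8, and 0.55 in the 16 atorvastatin mice and 0.49 in mice 5 to 16. For Cyp4a10 and Cyp4a14, Pearson's r was 0.92 (permutation adjusted p = 3.6e-04) and Spearman's rho 0.86 (permutation adjusted p = 0.0014) in the 16 WTD mice. In the 16 atorvastatin mice r was 0.93 (permutation adjusted p = 1.8e-04) and rho 0.85 (permutation adjusted p = 0.0011). Without the 2 mice farthest from the median of Cyp4a10, r was 0.78 and 0.88. It was 0.94 in atorvastatin mice 5 to 16 and, in chow mice 5 to 10, the set with the lower values, 0.91.

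The relations of Cyp4a32 were computed by group. With Cyp4f13, r was 0.90 (rho 0.88, permutation adjusted p = 1.8e-04 and 7.2e-04) in atorvastatin mice, 0.96 without the 2 farthest and 0.91 in atorvastatin mice 5 to 16, but 0.27 (rho 0.46, permutation adjusted p = 0.83 and 0.43) on chow and 0.19 (rho -0.06, permutation adjusted p = 0.76 and 0.99) on WTD. With Cyp4f15 it was 0.89 (rho 0.83, permutation adjusted p = 3.6e-04 and 0.0011) with atorvastatin and 0.67 in mice 5 to 16, 0.86 (rho 0.76, permutation adjusted p = 0.042 and 0.19) on chow, where it was 0.50 without the 2 farthest mice, and 0.15 (rho 0.14, permutation adjusted p = 0.79 and 0.96) on WTD. With Cyp4a10 it was 0.85 (rho 0.75, permutation adjusted p = 3.6e-04 and 0.0067) with atorvastatin, 0.71 (rho 0.46) in mice 5 to 16 and -0.18 (rho -0.21, permutation adjusted p = 0.76 and 0.77) on WTD. Whether r differed between groups was not tested. Cyp4v3 showed an r of -0.001 with Cyp4f13 (permutation adjusted p = 0.99) and of 0.16 with Cyp4a32 (permutation adjusted p = 0.37) over 42 mice.

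Several members followed the hepatocyte marker score over 42 mice, on values centred within groups, but the groups were not alike. For Cyp4f15 r was -0.43 on chow, 0.73 on WTD (0.33 without the 2 farthest mice) and 0.87 with atorvastatin. For Cyp4f14 the same values were 0.44, 0.82 (0.32) and 0.59. Cyp4a10 and Cyp4a14 had an r of -0.73 and -0.74 on chow, and of 0.82 and 0.75 with atorvastatin. Whether r differed between groups was not tested. For Cyp4f14 r was 0.67 and rho 0.59 over 42 mice (permutation adjusted p = 3.6e-04 and 0.0022 over 18 relations), and r was 0.50 without the 2 mice farthest from the median. For Cyp4f15 r was 0.64 and rho 0.53 (permutation adjusted p = 9e-04 and 0.0086), and 0.50 without those 2. For Cyp4v3 r was 0.56 and rho 0.44 (permutation adjusted p = 0.0023 and 0.023) but 0.31 without them, so much of this relation rests on those mice. Cyp4a32 reached an r of 0.93 and a rho of 0.83 (permutation adjusted p = 1.8e-04 and 0.0013) in the atorvastatin group, 0.89 without the 2 farthest mice and 0.72 in atorvastatin mice 5 to 16. In the WTD group its r was -0.28 and its rho -0.07 (permutation adjusted p = 0.47 and 0.86), and WTD mouse 2 had the lowest score of all mice (10.63) and the most Cyp4a32 of its group (71.0 CPM). With the clock score, 0 of 9 members passed an adjusted p of 0.05 over 42 mice, and r was largest for Cyp4f15, at 0.32 (rho 0.29, permutation adjusted p = 0.088 and 0.15). In the atorvastatin group alone r was 0.63 for Cyp4a31, 0.57 for Cyp4f13 and 0.56 for Cyp4a32 (permutation adjusted p = 0.034, 0.042 and 0.045). Their rho was 0.53, 0.61 and 0.57 (permutation adjusted p = 0.062, 0.033 and 0.049). On chow their r was -0.50, -0.63 and -0.12, and on WTD -0.37, 0.14 and -0.24.

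**Figure D4:**
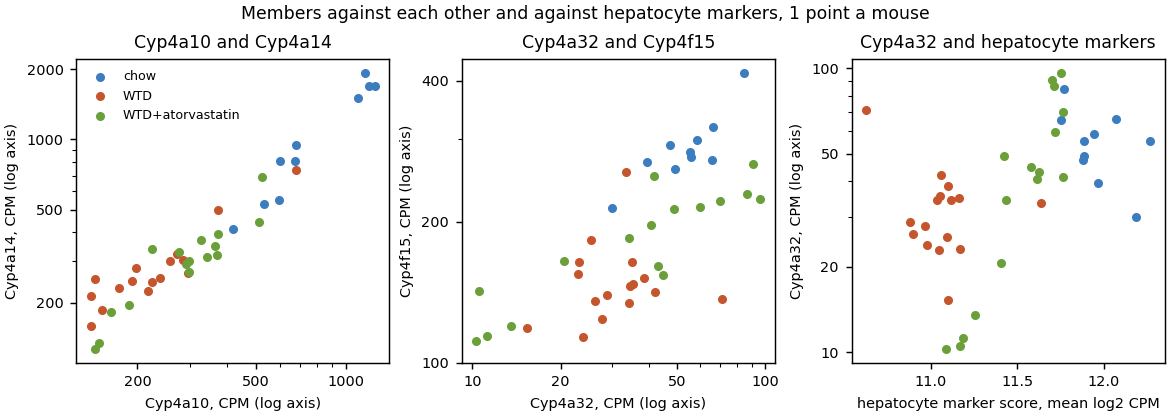
Each point is 1 mouse: Cyp4a14 against Cyp4a10 and Cyp4f15 against Cyp4a32, in CPM on log axes, and Cyp4a32 in CPM against the hepatocyte marker score (mean log2 CPM of 10 genes). Cyp4a10 and Cyp4a14 rise together within groups, and the 4 atorvastatin mice with 10.3 to 13.5 CPM of Cyp4a32 also have the lowest scores of their group.

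The genes outside the family whose within-group pattern was most like that of a member were looked up among genes with a mean of at least 1 CPM, by Pearson's r over 42 mice, as a description. For Cyp4a10 they included Slc27a2 (r = 0.87), Acsl1 (0.86), Acot3 (0.85) and Dpys (0.84). For Cyp4a14 they included Retsat (0.88), Ech1 (0.83), Acadl (0.82) and Ehhadh (0.82), enzymes of retinol and fatty acid metabolism. These 42 mice include both chow sets, and without the 8 mice that stood apart r with these genes was 0.80 to 0.88 for Cyp4a10 and 0.74 to 0.86 for Cyp4a14. The neighbours of Cyp4f14 were Gjb1 (0.84), the gap junction protein of hepatocytes, Glyctk (0.83), Shmt2 (0.80), Acsm1 (0.80) and Cyp2c40 (0.80). Cyp4f15 was closest to Fah (0.85) of tyrosine breakdown, BC024386 (0.85), Ndrg2 (0.85), Nlrp6 (0.83) and Pbld1 (0.83). Cyp4f13 was closest to Acad8 (0.85) of valine breakdown, A230072C01Rik (0.82), Col20a1 (0.82), Gm49431 (0.82) and Slc25a34 (0.78), and Cyp4a32 to Sirt3 (0.82), the mitochondrial deacetylase, Gm34667 (0.79), Erbb3 (0.78), Hykk (0.77) and Depp1 (0.77), at 0.59 to 0.73 without the 8 mice. Those of Cyp4v3 were Pnpla8 (0.78), Sdha (0.72), Sord (0.71), Rdx (0.71) and Cd1d1 (0.71). Cyp4a31, at low counts, reached no more than 0.60, with Abcd2.

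Genes of the steps that serve or follow omega-hydroxylation were in part lower on WTD. Among 6 genes listed for electron supply to P450, not all of them microsomal donors, 4 fell and 1 rose (median log2 fold change -0.66). Por, the reductase that passes electrons to microsomal P450, had a log2 fold change of -0.53 ± 0.15 (SE, adjusted p = 0.00380), Cyb5a one of -0.80, Cyb5b one of -0.85 and Pgrmc1 one of -0.85, while Cyb5r1 rose by 0.89. Atorvastatin against WTD gave 3 higher and 0 lower, with Cyb5b at 0.50, Cyb5r3 at 0.41 and Pgrmc1 at 0.21, and Por at 0.29 was not called (adjusted p = 0.172). Of 7 genes of alcohol and aldehyde dehydrogenases, 5 fell and 0 rose on WTD, with a median of -0.67. Among them were Adh4 (-0.95), Adh5 (-0.67), Aldh1a1 (-1.07) and Adh1 (-0.58 ± 0.09, SE), the main alcohol dehydrogenase of liver. Aldh3a2, the fatty aldehyde dehydrogenase, was not called, at -0.26 (adjusted p = 0.0550). With atorvastatin 2 of the 7 rose, Aldh9a1 by 0.45 and Adh1 by 0.34.

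Of 15 peroxisomal genes for the shortening of dicarboxylic acids, 9 fell and 0 rose on WTD (median log2 fold change -0.51). Crot was at -0.62, Hsd17b4 at -0.51 and the transporter Abcd3 at -0.59. Ehhadh, the bifunctional enzyme, was not called, at 0.06 with an interval from -0.22 to 0.33 (adjusted p = 0.778). With atorvastatin 2 rose, Abcd3 by 0.40 and Abcd2 by 0.52. PPARα and its other targets gave 18 lower and 1 higher of 30 tested on WTD (median -0.47). Ppara itself was at -0.62 ± 0.17 (SE, adjusted p = 0.00270), Acadm of mitochondrial oxidation at -0.62 and Acadl at -0.59, Ech1 was 2.01-fold lower, and Cd36, a fatty acid carrier of the cell membrane that macrophages also express, rose by 0.43. With atorvastatin 2 of the 30 rose, Acsl1 by 0.49 and Cyp8b1 2.01-fold, and 0 fell, with Rxra, the partner of PPARα, at 0.26 (adjusted p = 0.0142). These lists stand beside background shares of 16% lower on WTD and 4.84% higher with atorvastatin.

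Genes around leukotriene B4 gave 1 higher of 7 tested and 0 lower on WTD, where 17.5% of all tested genes were called higher and 16% lower. The gene called was Alox5ap, the helper of 5-lipoxygenase in leukotriene synthesis, at 1.51 (adjusted p = 4.53e-04). Ptgr1 at 0.75 (adjusted p = 0.0329) and Alox5 at 2.02 (adjusted p = 0.0732) were not called. Alox5 was barely detected, with means of 0.38 CPM on WTD and 0.089 CPM on chow. With atorvastatin edgeR called 0 of the 7 (0 at an unadjusted p under 0.05), Alox5ap being at -0.42 (adjusted p = 0.423). Of 11 tested genes listed for arachidonate release and its other oxidation, 5 fell on WTD, such as Cyp2j5 (-0.93) and Cyp2c29 (-1.03). Pla2g12b, of the phospholipase A2 family by name, was another (-0.58). The 2 that rose were Pla2g4a (1.48) and Ptgs1 (0.88). With atorvastatin Cyp2j5 (0.42) and Cyp2c29 (0.66) rose and 0 fell. Among 14 other Cyp4 genes, 6 were tested. Cyp4f16 (1.32) and Cyp4f18 (1.96) rose on WTD and Cyp4f17 fell (-1.05), while Cyp4b1 was not called (-0.56, adjusted p = 0.0118). With atorvastatin edgeR called 0 of the 6 (1 at an unadjusted p under 0.05), Cyp4b1 being at 0.44 (adjusted p = 0.0719). Cyp4f18, a leukotriene hydroxylase of myeloid cells, went from a mean of 2.90 CPM on chow to 11.3 CPM on WTD, and the macrophage markers given above rose as well, but their part in this was not tested. The 14 together made up 41.0 to 70.8 CPM in chow mice, against 1668 to 4110 CPM for the members.

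Genes known as sex-biased in liver, of which the Cyp4a12 genes are an example, were set beside them. Of 18 female-biased genes, 17 fell on WTD and 0 rose (median log2 fold change -2.54), with Cyp2b9 at -1.78 and A1bg at -6.38. With atorvastatin 13 rose and 0 fell (median 1.60), Cyp2b9 by 0.94 and Sult2a1 by 2.89. Of 13 tested male-biased genes, 6 fell and 1 rose on WTD, and 1 rose and 2 fell with atorvastatin. Cyp2d9, one of them, was not called in either (0.36 and -0.67, adjusted p = 0.207 and 0.0162).

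**Figure D5:**
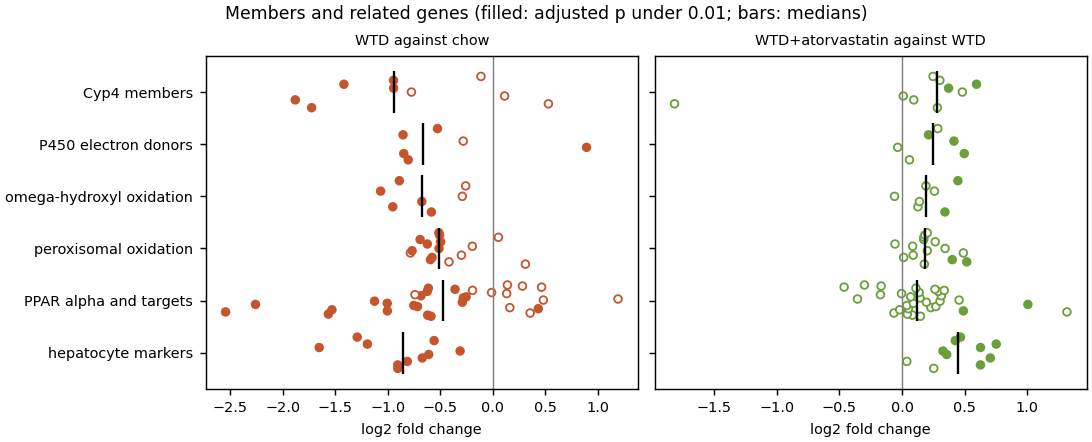
Log2 fold changes (horizontal axes) of the members and of 5 related gene lists, 1 point a gene, filled at an adjusted p under 0.01, with vertical bars at list medians, for WTD against chow and WTD+atorvastatin against WTD. Medians on WTD are -0.94 for the members, -0.51 for peroxisomal oxidation and -0.86 for hepatocyte markers.

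Upstream sequence was at hand for 5 of the 10 members (RefSeq, GRCm38.p6), up to 250 bases before the start, less any bases inside the GENCODE gene. Since the 3 Cyp4f genes among the members fell together on WTD, theirs are printed 5′ to 3′ on the strand of the gene. A script looked for the longest words that all 3 share and found 3 words of 7 bases, of which GGATTGG, rarest over all promoters, is in capitals.
Cyp4f13, chr17:32947403-32947611, minus strand: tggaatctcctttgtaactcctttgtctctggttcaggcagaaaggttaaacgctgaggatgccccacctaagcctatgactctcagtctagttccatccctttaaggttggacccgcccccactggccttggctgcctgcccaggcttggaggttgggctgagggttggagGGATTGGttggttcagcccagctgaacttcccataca
Cyp4f14, chr17:32917343-32917579, minus strand: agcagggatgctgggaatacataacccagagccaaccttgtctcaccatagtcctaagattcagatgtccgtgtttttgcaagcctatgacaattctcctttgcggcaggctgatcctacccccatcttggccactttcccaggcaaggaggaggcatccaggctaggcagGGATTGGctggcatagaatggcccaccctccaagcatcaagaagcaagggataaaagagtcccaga
Cyp4f15, chr17:32685409-32685626, plus strand: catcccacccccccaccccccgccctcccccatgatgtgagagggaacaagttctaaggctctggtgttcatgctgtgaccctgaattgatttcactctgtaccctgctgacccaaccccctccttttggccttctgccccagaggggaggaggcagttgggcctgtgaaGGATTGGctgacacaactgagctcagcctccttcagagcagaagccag
The word begins 37, 66 and 48 bases before the annotated start of Cyp4f13, Cyp4f14 and Cyp4f15. It or its reverse complement occurs in 4.16% of 32536 promoter windows of 250 bases, and CTCCTTT and TTGGCTG, the other shared words, in 7.15% and 7.5%. Read on the other strand GGATTGG holds CCAAT, the letters of the CCAAT box. Other Cyp4f genes, of which Cyp4f16 and Cyp4f18 rose and Cyp4f17 fell on WTD, were not part of the search for shared words. The half-site AGGTCA of nuclear receptors, searched on both strands, occurs in 14% of the windows and its direct repeat with 1 base between, AGGTCANAGGTCA, the kind that PPARα with RXR binds, in 0.0338%. Neither was in the windows of Cyp4a32, Cyp4f13, Cyp4f14, Cyp4f15 or Cyp4v3, which says only that these letters are not there.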

How the data were processed

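Liver RNA of 42 mice was analysed. Per the labels and methods, the authors made strand-specific poly(A) libraries, trimmed read pairs (Trimmomatic), mapped them with STAR 2.5 on GRCm38 and obtained raw counts per gene with HTSeq 0.6.1p1. The deposited counts were not normalized. Lines that name no gene (2.282% without a feature, 5.955% ambiguous and 4.679% not uniquely aligned, on average) were left out. Totals per mouse ran from 15661381 to 36224054, with a median of 19421089.5. The members, the related lists and the tests were chosen with earlier results of these data known. Genes named from the pathway lists are those of the lowest p in a comparison, up to 3 each, plus genes chosen for their role. Some genes that this rule names are not reported here. Positions and exon lengths came from GENCODE vM21, while the authors counted on vM19 of the same build.

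All 42 mice entered 1 fit in edgeR 4.0.16 (R 4.3.3, TMM, filterByExpr with a minimum count of 10, robust quasi-likelihood F test), and calls needed an adjusted p under 0.01 over 15574 genes. CPM use TMM library sizes, and log2 CPM add a prior count of 2. Relations were tested two-sided with 100000 permutations of mice within groups, and ratios by permuting mice between 2 groups (Python 3.11.15, scipy 1.17.1). The smallest p these can give is 1e-05. The fits of edgeR, limma-voom and DESeq2 were tested on simulated counts, for WTD against chow and for WTD+atorvastatin against WTD. DESeq2 1.42.0 and limma 3.58.1 were among the alternatives.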

Additional observations from a re-analysis of the deposited data

Results flagged for a closer look

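In the chow group, Cyp4f15 of mouse 2 was far from the others at 416.9 CPM, the next mouse being at 318.6 CPM. The gap was 0.486 of the group's range, above the critical value of 0.466 for 10 mice. In all, 10 groups of mice, 1 for each member on chow, were looked at in this way, and chance alone marks about 1 in 20 such groups. Chow mouse 2 also lacked a count for 57.29% of the genes at 1 to 2 CPM. Without it, Cyp4f15 fell by 0.87 on the log2 scale on WTD (edgeR's quasi-likelihood test, adjusted p = 5.70e-08).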

How the results depend on the processing

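Counts of called members were 5 on WTD and 5 for WTD+atorvastatin against chow in all 42 fits that left out 1 mouse, and 2 to 4 for WTD+atorvastatin against WTD, with 4 without WTD mouse 15. For WTD+atorvastatin against WTD, limma-voom with quality weights per sample called 5 (Cyp4f13, Cyp4f14, Cyp4f15, Cyp4v3 and Cyp4a10). Adding each library's share of missed weak genes to the fit left 1, Cyp4f14. A log2 fold change of at least 1 left 3, 0 and 2 members in the 3 comparisons, and the hepatocyte score as a covariate 0, 0 and 3. That covariate turned the log2 fold change of Cyp4a12a (-3.795), Cyp4a32 (0.3146) and Cyp4v3 (0.5376) for WTD against chow, of Cyp4a10 (-0.3493), Cyp4a12a (0.1031), Cyp4a14 (-0.4646), Cyp4a31 (-0.3484), Cyp4a32 (-0.2346), Cyp4f15 (-0.1638) and Cyp4v3 (-0.0757) for WTD+atorvastatin against WTD, and of Cyp4a32 (0.08001) for WTD+atorvastatin against chow. The value of Cyp4a31, WTD+atorvastatin against WTD, was 0.01 and became -0.03383 with DESeq2, -0.03409 with RLE and -0.01656 with upper-quartile normalization, -0.02998 when each mouse had to hold 10 or more counts, -0.0005536 in a fit of those 2 groups and -0.01428 without the 9 libraries that miss weak genes, and ran from -0.03524 to 0.06249 when 1 mouse was left out. That of Cyp4a12a, WTD against chow, became -0.01912 without the 9 libraries. Cyp4a14 for WTD+atorvastatin against WTD ran from -0.02481 (without atorvastatin mouse 9) to 0.246 (without WTD mouse 15). Of pairs of members, 3 passed within chow, 4 within WTD and 16 within WTD+atorvastatin. The cause of these changes was not tested. The ratios and the relations with the scores were added after the data had been seen, and the ratios kept their side of 0.05 in the alternatives run. No paired analysis was possible, because the labels give no mouse number that groups share. Numbers of the chow group carry another prefix than those of both WTD-fed groups, and the 2 WTD-fed groups share no number. The mouse numbers used in the text are running numbers within each group. Cyp4a12a held 0 to 124 counts in a mouse.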

Other observations

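Genes of both ends of the liver lobule were lower on WTD. Of 12 genes of periportal hepatocytes, 10 fell and 0 rose (median log2 fold change -0.87), Cyp2f2 by 2.58 and Hal, which breaks down histidine, by 2.05 on the log2 scale. Of 10 tested pericentral genes, 8 fell and 0 rose (median -0.80), with Cyp1a2 at -1.02 and Rgn at -0.90. With atorvastatin 9 of the 12 periportal genes rose (median 0.66), Cyp2f2 by 1.62 and Arg1 of the urea cycle by 0.62, and 2 of the 10 pericentral genes (median 0.32), Cyp1a2 by 0.78 and Rgn by 0.40. Whether the ends of the lobule differed was not tested.

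Among 10 genes of growth hormone signalling, 5 fell and 1 rose on WTD, with the receptor Ghr at -0.94 and Igf1 at -0.79, and 2 rose with atorvastatin, Ghr by 0.49 and Hnf4a by 0.33. Of 15 tested clock genes, 3 fell and 2 rose on WTD, with Nfil3 at -1.54 and Bhlhe41 at 2.87, where 33.5% of all tested genes were called. All values are from edgeR's quasi-likelihood test at an adjusted p under 0.01.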
